A study of Mus musculus with 14 samples.

Results

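Markers of neurons, glia and vessel cells were followed in RNA from sorted microglia, the resident macrophages of the brain. The set held 33 genes, each a marker of a cell class that a microglia sort is meant to leave behind. They were 7 astrocyte genes, 5 oligodendrocyte genes, 4 genes of the oligodendrocyte lineage and its precursors, 9 neuronal genes, 5 endothelial genes and 3 pericyte genes. All 33 had an array row annotated to exactly 1 gene symbol, and each had a single such row, out of 19938 genes measured in all. The genes were listed by the cells they mark, and no measured value entered the rule, but earlier results of these data were known when they were chosen.

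Microglia came from the ipsilateral cortex of C57BL/6J males, 12 to 14 weeks old, and each sample was hybridised to its own array. The 4 groups were TLR4-/- mice with ischaemia and reperfusion (I/R, n = 3, lettered B, C and D), TLR4-/- mice with a sham operation (n = 3, lettered A, B and D), wild-type mice with I/R (n = 4, lettered A to D) and wild-type mice with a sham operation (n = 4, lettered A to D). I/R was a 15 min filament occlusion of the middle cerebral artery under isoflurane with 72 h of reperfusion. Every mouse of the sham groups had surgery and isoflurane too. TLR4 is an innate immune receptor that senses bacterial lipopolysaccharide and products of injured tissue. The sources used here do not describe the TLR4-/- allele, the sort markers or the abbreviation IPC in the I/R titles. Nor do they tie each sample to 1 animal, so the p-values reflect spread between samples that may be partly technical.

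Astrocytes clear glutamate from synapses and line vessels with their endfeet, oligodendrocytes wrap axons in myelin, and precursor cells replace them. Endothelial cells form the blood-brain barrier, with pericytes lying on the outside of the capillary wall. Microglia touch all of these cells and take up debris of myelin and synapses, and a sort from cortex has to part them from tissue in which they are a minority.

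The deposited values were on the log2 scale, and array medians lay between 4.93 and 5.12. With no detection call to go by, 1027 olfactory receptor genes were used to gauge background. Their means had a median of 2.95 and a 95th percentile of 4.67, which is called the background bound here, and 12533 genes (62.9%) had a mean above it. The 9 measured markers of microglia themselves (Cx3cr1, P2ry12, Tmem119, Csf1r, Aif1, Itgam, Fcrls, Olfml3 and Siglech) had means between 10.25 and 11.75 and lay above the bound on every array. Tlr4 signal was present in both genotypes, between 7.62 and 8.47 in TLR4-/- and between 8.14 and 8.92 in wild type. After sham the genotypes were apart, at 8.15 to 8.47 in TLR4-/- and 8.57 to 8.92 in wild type. After I/R they overlapped, at 7.62 to 8.40 and 8.14 to 8.48. The log2 differences of -0.46 after sham and -0.28 after I/R did not pass (limma, adjusted p = 0.920 and 0.634). Since the deleted part and the probe positions are unknown here, Tlr4 signal checks no genotype. Arrays of a group correlated with each other at r between 0.981 and 0.993 across all genes. TLR4-/- I/R array D stood nearer to wild-type I/R (r from 0.9901 to 0.9915) than to the other TLR4-/- I/R arrays (0.9851 and 0.9898). Wild-type sham array C likewise stood nearer to TLR4-/- sham (0.9872 to 0.9916) than to the other wild-type sham arrays (0.9814 to 0.9865). The other TLR4-/- I/R arrays leaned the same way, though their ranges overlapped. Array B had 0.9863 to 0.9879 with wild-type I/R and 0.9851 and 0.9865 with its own group. Array C had 0.9875 to 0.9902 and 0.9865 and 0.9898. Wild-type sham array D leaned to TLR4-/- sham too (0.9883 to 0.9909, against 0.9865 to 0.9889 in its own group). The ranges of sham arrays A and B overlapped as well. Counts are given with and without TLR4-/- I/R array D and wild-type sham array C below.

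Signal of these marker genes was low in the sorted microglia but not absent. Of the 33 markers, 16 (48.5%) had a mean above the background bound, beside 62.9% of all genes. On every array 10 were above it, beside 10903 of all 19938 genes. These 10 were Slc1a3, Mbp, Mag, Mobp, Cnp, Cspg4, Snap25, Cldn5, Pecam1 and Cdh5. Oligodendrocyte markers were above the bound most often, with 5 of 5 by their mean and 4 of 5 on every array. For astrocytes 3 of 7 had a mean above it, for the lineage and precursors 1 of 4, for neurons 3 of 9, for endothelial cells 3 of 5 and for pericytes 1 of 3. The other 17 markers had means within the range of the olfactory receptor genes, and their differences were measured against background signal. More cells of a class and more RNA of a marker per cell cannot be told apart in RNA from a pool of cells.

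**Figure D1:**
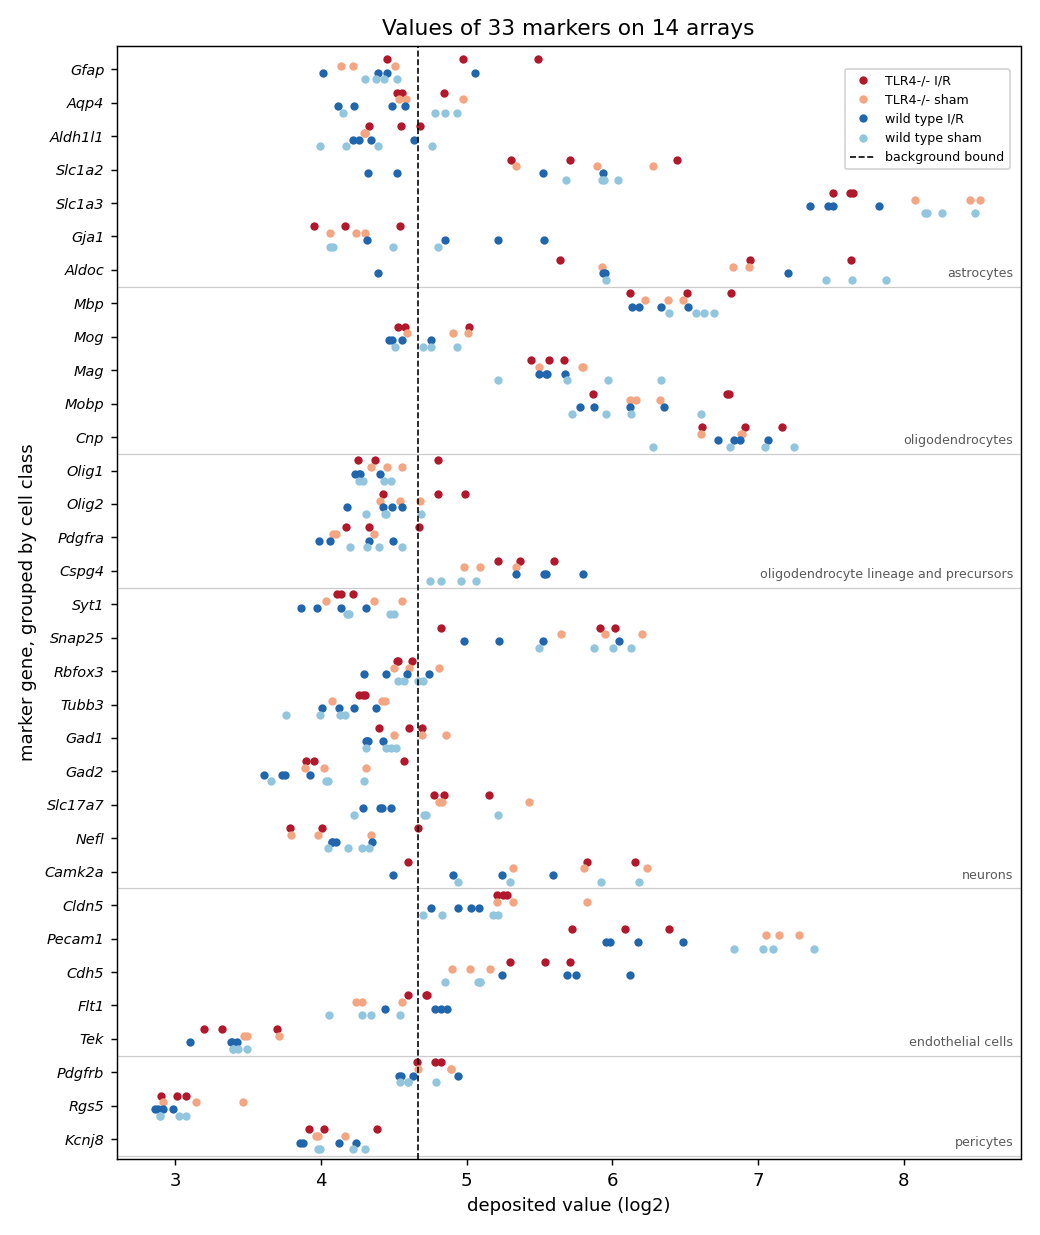
Deposited log2 value (horizontal axis) of each of the 33 markers (vertical axis, grouped by cell class) on each of the 14 arrays. Each point is 1 array, coloured by group, and the dashed line is the background bound of 4.67. Of the markers, 10 have all their points to the right of it.

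A second list held 51 markers of the same classes, none of them among the 33. Of its 49 measured genes, 27 had a mean above the bound. By class these were 7 of 10 astrocyte genes, 4 of 9 oligodendrocyte genes, 3 of 5 lineage genes, 4 of 9 neuronal genes, 5 of 10 endothelial genes and 4 of 6 pericyte genes. Oligodendrocyte genes were thus not above the bound most often in this list. The genes with the highest means were Glul, the glutamine synthetase of astrocytes (mean 10.85), Slc2a1, the glucose transporter of brain endothelium (9.31), and Eng, the TGF-beta co-receptor endoglin (8.00). All of these lay above the highest mean of the 33 markers (7.93), and Glul lay within the range of the microglia markers (10.25 to 11.75). Which cells gave these signals was not tested. The 2 highest means of the other classes were 5.66 for Syp and 5.45 for Nrgn among neuronal genes, and 5.53 for Sox10 and 5.42 for Myrf among oligodendrocyte genes. They were 5.15 for C1ql1 and 4.83 for Gpr17 in the lineage and 5.37 for Notch3 and 5.16 for Anpep in pericytes, while the other astrocyte gene of this kind was Ntsr2 at 5.43. Among 9 markers of choroid plexus, ependyma, fibroblasts and red cells, 6 had a mean above the bound, the highest being Col1a1 at 5.85.

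The first question was how the markers differed between I/R and sham. In wild type 5 of the 33 passed the test (limma, adjusted over all genes, threshold 0.05), with 3 higher and 2 lower, while over all genes 6.15% were higher and 3.63% lower. In TLR4-/- 2 of the 33 passed, none higher and 2 lower, against 5.04% and 3.13% of all genes. At an unadjusted p under 0.05 the counts were 3 higher and 2 lower in TLR4-/-, where 20.3% of all genes reached it in either direction, and 4 higher and 4 lower in wild type, beside 22.6% of all genes. Without the arrays TLR4-/- I/R D and wild-type sham C the counts were again 5 and 2, although Aldoc took the place of Flt1 in wild type. The median log2 difference of the 33 was -0.02 in TLR4-/- and -0.10 in wild type, beside -0.03 and -0.06 over all genes.

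The promoter windows of the markers that passed are shown first where RefSeq gave one, since the direction of change differed between them. Each covers 300 bases around the annotated start, most of them upstream, in GRCm38.p6, 5′ to 3′ on the strand of the gene. The windows lie at chr15:8710758-8711057 on the minus strand for Slc1a3, chr9:56864854-56865153 on the plus strand for Cspg4 and chr5:147725962-147726261 on the minus strand for Flt1. Capitals mark GAGGAA, a core sequence bound by PU.1, the factor that macrophages and microglia depend on.
Slc1a3: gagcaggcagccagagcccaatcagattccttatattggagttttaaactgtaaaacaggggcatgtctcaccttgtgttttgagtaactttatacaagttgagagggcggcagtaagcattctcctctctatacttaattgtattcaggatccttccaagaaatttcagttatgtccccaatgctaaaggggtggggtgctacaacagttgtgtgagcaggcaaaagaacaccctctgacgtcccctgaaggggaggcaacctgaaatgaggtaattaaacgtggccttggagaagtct
Cspg4: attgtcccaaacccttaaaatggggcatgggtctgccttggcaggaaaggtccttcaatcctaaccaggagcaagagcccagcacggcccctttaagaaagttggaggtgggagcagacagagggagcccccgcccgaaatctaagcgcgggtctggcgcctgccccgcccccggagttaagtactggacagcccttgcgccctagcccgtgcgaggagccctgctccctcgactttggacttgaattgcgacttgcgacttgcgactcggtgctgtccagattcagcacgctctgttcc
Flt1: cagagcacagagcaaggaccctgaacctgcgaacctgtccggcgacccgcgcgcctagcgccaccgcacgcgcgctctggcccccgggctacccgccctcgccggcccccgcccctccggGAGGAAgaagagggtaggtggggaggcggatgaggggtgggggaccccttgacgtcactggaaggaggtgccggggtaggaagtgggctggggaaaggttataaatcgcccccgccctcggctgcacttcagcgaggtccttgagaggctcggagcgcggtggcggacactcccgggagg
On either strand, GAGGAA was found once in the Flt1 window and not in the windows of Slc1a3 or Cspg4. It was found in 28.3% of 32851 windows of all genes and in 12 of the 28 windows that matched 24 of the 33 markers (10 of these 24 genes). A match describes the letters of the window and does not show binding.

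Among astrocyte markers, Slc1a3 encodes GLAST, the glutamate and aspartate transporter of astrocytes, which has also been described in activated microglia. Slc1a3 had 7.63, 7.51 and 7.65 on TLR4-/- I/R arrays B, C and D, against 8.07, 8.52 and 8.45 on TLR4-/- sham arrays A, B and D. In wild type it had 7.48, 7.83, 7.36 and 7.52 on I/R arrays A to D, against 8.26, 8.49, 8.15 and 8.16 on sham arrays A to D. All I/R arrays lay below all sham arrays in both genotypes. The log2 difference was -0.75 in TLR4-/- (SE 0.15, adjusted p = 0.00377, 1.68-fold lower) and -0.72 in wild type (SE 0.13, adjusted p = 0.00134, 1.64-fold lower).

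The other astrocyte markers did not pass in either genotype. Aldoc, the aldolase of astrocytes, had 6.94, 5.64 and 7.64 on TLR4-/- I/R arrays B, C and D, against 5.93, 6.94 and 6.83 on TLR4-/- sham arrays A, B and D. It had 4.39, 7.20, 5.94 and 5.95 on wild-type I/R arrays A to D, against 7.65, 7.46, 5.96 and 7.88 on wild-type sham arrays A to D. The arrays of a group were far apart, and the groups overlapped in both genotypes. The wild-type difference of -1.37 (SE 0.53) had an adjusted p of 0.126, and it passed when wild-type I/R array B (-1.81, adjusted p = 0.0364) or wild-type sham array C (-1.79, adjusted p = 0.0413) was left out.

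Slc1a2, the main glutamate transporter of astrocytes, averaged 5.82 ± 0.58 in TLR4-/- I/R and 5.84 ± 0.47 in TLR4-/- sham (SD, n = 3 each). In wild type it averaged 5.07 ± 0.78 after I/R and 5.90 ± 0.15 after sham (SD, n = 4 each), a difference of -0.83 with an adjusted p of 0.118. Without wild-type I/R array B this difference was -1.11 and passed (adjusted p = 0.0247). Gja1, the gap-junction protein connexin 43, ran the other way in wild type, at 4.98 ± 0.52 after I/R and 4.36 ± 0.36 after sham (SD, n = 4 each, adjusted p = 0.0994). It passed when wild-type I/R array B (0.84, adjusted p = 0.0136) or wild-type sham array D (0.76, adjusted p = 0.0491) was left out. In TLR4-/- Gja1 averaged 4.22 ± 0.30 after I/R and 4.20 ± 0.12 after sham (SD, n = 3 each).

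Gfap, the intermediate filament that reactive astrocytes make in quantity, did not pass. It averaged 4.97 ± 0.52 in TLR4-/- I/R and 4.29 ± 0.20 in TLR4-/- sham (SD, n = 3 each, difference 0.68, adjusted p = 0.103). The values in wild type were 4.48 ± 0.43 after I/R and 4.41 ± 0.09 after sham (SD, n = 4 each). Without TLR4-/- I/R array C the TLR4-/- difference was 0.94 with an adjusted p of 0.0278. Aqp4, the water channel of astrocyte endfeet, averaged 4.64 ± 0.18 in TLR4-/- I/R, 4.70 ± 0.24 in TLR4-/- sham, 4.35 ± 0.22 in wild-type I/R and 4.68 ± 0.36 in wild-type sham (SD, n = 3, 3, 4 and 4). It passed in wild type without wild-type sham array A alone (-0.50, adjusted p = 0.0360). Aldh1l1, a folate enzyme, had group means between 4.30 and 4.52. Over all arrays the means of Gja1, Gfap, Aqp4 and Aldh1l1 lay below the background bound.

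Of the 49 other markers measured, 6 passed between I/R and sham in wild type (1 higher and 5 lower) and 3 in TLR4-/- (1 higher and 2 lower). Over all genes 6.15% were higher and 3.63% lower in wild type, and 5.04% and 3.13% in TLR4-/-. Of the 10 astrocyte genes among these 49, 4 were lower after I/R in wild type and none was higher. Among the 4 was Glul, with a mean within the range of the microglia markers. Glul averaged 10.65 ± 0.15 after I/R and 11.03 ± 0.08 after sham in wild type (SD, n = 4 each, difference -0.38, adjusted p = 0.0202). In TLR4-/- Glul averaged 10.63 ± 0.07 after I/R and 11.12 ± 0.08 after sham (SD, n = 3 each, difference -0.49, adjusted p = 0.0120), and it was the only one of the 10 to pass there. The remaining 3 in wild type were Mlc1, a membrane protein of astrocyte endfeet (-0.78, adjusted p = 0.0326), Atp1b2, a sodium pump subunit (-0.45, adjusted p = 0.0289), and Slc4a4, a bicarbonate transporter (-0.45, adjusted p = 0.0212). A pass in wild type alone does not show that the genotypes differed, and the test of the difference is given below.

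No oligodendrocyte marker passed in either genotype. Cnp, a myelin enzyme, had 6.91, 6.61 and 7.16 on TLR4-/- I/R arrays B, C and D, against 6.61, 6.88 and 6.89 on TLR4-/- sham arrays A, B and D. On wild-type I/R arrays A to D it had 6.87, 6.84, 6.72 and 7.07, against 7.25, 6.81, 6.28 and 7.05 on wild-type sham arrays A to D. The ranges overlapped throughout, with wild-type sham array C the lowest of all. Mbp, the myelin basic protein gene, had 6.51, 6.12 and 6.81 on TLR4-/- I/R arrays B, C and D, against 6.22, 6.48 and 6.38 on TLR4-/- sham arrays A, B and D. In wild type Mbp had 6.33, 6.52, 6.13 and 6.18 on I/R arrays A to D, against 6.58, 6.70, 6.39 and 6.63 on sham arrays A to D. Wild-type I/R array B lay within the sham range of Mbp, and the difference of -0.28 did not pass (SE 0.14, adjusted p = 0.252).

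The remaining myelin genes did not pass either. Mobp had group means between 6.03 and 6.49, Mag between 5.56 and 5.80, and Mog between 4.57 and 4.84. Of these Mobp and Mag encode a structural protein and an adhesion molecule of myelin, while Mog encodes a glycoprotein of the outermost myelin layer. The 9 other oligodendrocyte markers measured gave no call in either genotype.

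In the oligodendrocyte lineage, Cspg4 was higher after I/R in wild type. It encodes the NG2 proteoglycan, which marks both oligodendrocyte precursors and pericytes. Cspg4 had 5.54, 5.34, 5.53 and 5.80 on wild-type I/R arrays A to D, against 4.96, 4.75, 5.06 and 4.82 on wild-type sham arrays A to D. The groups did not overlap, and the log2 difference was 0.65 (SE 0.13, adjusted p = 0.00255, 1.57-fold higher). On TLR4-/- I/R arrays B, C and D it had 5.22, 5.37 and 5.60, against 5.09, 5.34 and 4.98 on TLR4-/- sham arrays A, B and D. Those ranges overlapped, and the difference of 0.26 (SE 0.15) had an adjusted p of 0.359.

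No other member of the lineage class passed. Pdgfra, the PDGF receptor that defines precursors, averaged 4.39 ± 0.26 in TLR4-/- I/R, 4.18 ± 0.16 in TLR4-/- sham, 4.22 ± 0.24 in wild-type I/R and 4.37 ± 0.15 in wild-type sham (SD, n = 3, 3, 4 and 4), all below the background bound. The transcription factor gene Olig2 had 4.81, 4.99 and 4.43 on TLR4-/- I/R arrays B, C and D, against 4.54, 4.68 and 4.40 on TLR4-/- sham arrays A, B and D. On wild-type I/R arrays A to D Olig2 had 4.43, 4.56, 4.49 and 4.18, against 4.45, 4.31, 4.69 and 4.44 on wild-type sham arrays A to D. Both genotypes overlapped between surgeries. Its relative Olig1 had group means between 4.29 and 4.47, and none of the 5 other lineage markers passed.

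Pericyte markers likewise gave no call. Pdgfrb, the PDGF receptor of pericytes, had 4.79, 4.83 and 4.66 on TLR4-/- I/R arrays B, C and D, against 4.67, 4.89 and 4.89 on TLR4-/- sham arrays A, B and D. On wild-type I/R arrays A to D it had 4.55, 4.54, 4.63 and 4.94, against 4.54, 4.60, 4.79 and 4.60 on wild-type sham arrays A to D. All of these lay close to the background bound and overlapped. Kcnj8, a potassium channel subunit, had 4.38, 3.92 and 4.02 on TLR4-/- I/R arrays B, C and D, against 3.98, 3.96 and 4.16 on TLR4-/- sham arrays A, B and D. In wild type Kcnj8 had 3.86, 4.12, 4.24 and 3.88 on I/R arrays A to D, against 3.98, 4.30, 4.22 and 3.99 on sham arrays A to D. Kcnj8 and Rgs5, a G-protein regulator with group means between 2.91 and 3.18, stayed below the bound on every array.

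Among 6 other pericyte markers 1 passed. Anpep, the peptidase CD13 of pericytes and myeloid cells, averaged 5.56 ± 0.58 in TLR4-/- I/R and 4.61 ± 0.08 in TLR4-/- sham (SD, n = 3 each, difference 0.95, adjusted p = 0.0227). In wild type it averaged 5.63 ± 0.11 after I/R and 4.79 ± 0.42 after sham (SD, n = 4 each, difference 0.84, adjusted p = 0.0172). The ranges of I/R and sham were apart in both genotypes.

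Among the 5 endothelial markers, Pecam1 was lower after I/R in both genotypes, and Cdh5 and Flt1 were higher in wild type. Pecam1, the adhesion molecule CD31 of endothelium, platelets and many leukocytes, had 6.09, 5.72 and 6.39 on TLR4-/- I/R arrays B, C and D, against 7.14, 7.28 and 7.05 on TLR4-/- sham arrays A, B and D. On wild-type I/R arrays A to D it had 6.18, 6.49, 5.98 and 5.96, against 7.38, 7.03, 6.83 and 7.10 on wild-type sham arrays A to D. No I/R array reached a sham array in either genotype. The log2 difference was -1.09 in TLR4-/- (SE 0.18, adjusted p = 0.000883, 2.13-fold lower) and -0.93 in wild type (SE 0.16, adjusted p = 0.000725, 1.91-fold lower).

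Cdh5, the cadherin of endothelial junctions, was higher after I/R in wild type. It had 5.25, 5.69, 5.75 and 6.12 on wild-type I/R arrays A to D, against 5.09, 4.85, 5.08 and 5.09 on wild-type sham arrays A to D. The groups were apart, and the log2 difference was 0.67 (SE 0.15, adjusted p = 0.00854, 1.59-fold higher). On TLR4-/- I/R arrays B, C and D Cdh5 had 5.53, 5.71 and 5.29, against 4.90, 5.03 and 5.16 on TLR4-/- sham arrays A, B and D. These groups were apart too, but the difference of 0.48 (SE 0.18) did not pass, with an adjusted p of 0.115.

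Flt1 encodes VEGF receptor 1, found on endothelium and on monocytes and macrophages. It had 4.79, 4.86, 4.82 and 4.44 on wild-type I/R arrays A to D, against 4.28, 4.05, 4.35 and 4.54 on wild-type sham arrays A to D. The ranges overlapped through I/R array D and sham array D, and both sham means lay below the background bound. The difference of 0.42 (SE 0.13, 1.34-fold higher) had an adjusted p of 0.0431. It no longer passed without wild-type I/R array A (adjusted p = 0.106), B (0.111) or C (0.119), without wild-type sham array A (0.0770), B (0.131) or C (0.0696), or without TLR4-/- I/R array C (0.0538) or TLR4-/- sham array A (0.0536). On TLR4-/- I/R arrays B, C and D Flt1 had 4.73, 4.72 and 4.60, against 4.28, 4.56 and 4.24 on TLR4-/- sham arrays A, B and D (difference 0.32, adjusted p = 0.221).

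The endothelial markers Cldn5 and Tek did not pass. Cldn5, the main tight-junction claudin of brain vessels, averaged 5.24 ± 0.03 in TLR4-/- I/R, 5.45 ± 0.33 in TLR4-/- sham, 4.95 ± 0.14 in wild-type I/R and 4.98 ± 0.26 in wild-type sham (SD, n = 3, 3, 4 and 4). Tek, the angiopoietin receptor TIE2, had group means between 3.33 and 3.56, below the bound. Of 10 other endothelial markers, Eng alone passed, and it was lower after I/R. Eng averaged 7.49 ± 0.49 in TLR4-/- I/R and 8.41 ± 0.12 in TLR4-/- sham (SD, n = 3 each, difference -0.92, adjusted p = 0.00658). The wild-type means were 7.61 ± 0.27 after I/R and 8.48 ± 0.03 after sham (SD, n = 4 each, difference -0.87, adjusted p = 0.00273).

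**Figure D2:**
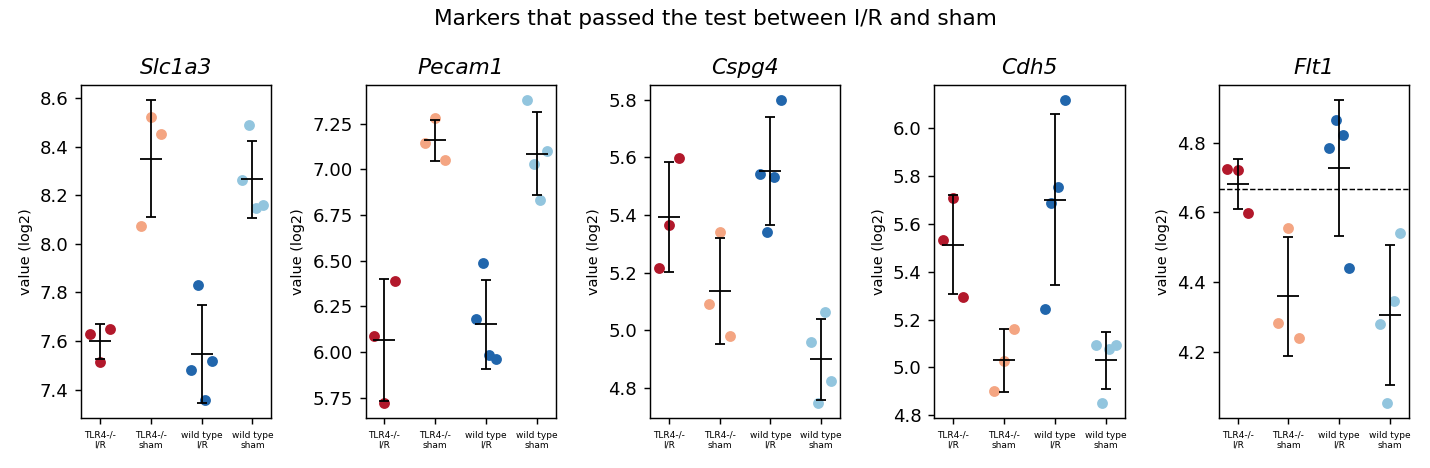
Deposited log2 value of Slc1a3, Pecam1, Cspg4, Cdh5 and Flt1 on each array, with the group on the horizontal axis. Points are arrays, bars are the group mean ± SD, and the dashed line in the last panel is the background bound. Vertical axes do not start at 0 and differ between panels. I/R and sham arrays do not overlap in either genotype for Slc1a3, Pecam1 and Cdh5.

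Neuronal markers gave no call in either genotype. Snap25, a protein of synaptic vesicle fusion, had 6.02, 4.82 and 5.92 on TLR4-/- I/R arrays B, C and D, against 5.65, 5.95 and 6.20 on TLR4-/- sham arrays A, B and D. In wild type it had 4.98, 6.05, 5.53 and 5.22 on I/R arrays A to D, against 6.13, 6.00, 5.50 and 5.88 on sham arrays A to D. The I/R arrays overlapped the sham arrays in both genotypes. Camk2a, a kinase of excitatory synapses, had 5.83, 4.60 and 6.16 on TLR4-/- I/R arrays B, C and D, against 5.32, 6.24 and 5.81 on TLR4-/- sham arrays A, B and D. On wild-type I/R arrays A to D Camk2a had 4.49, 5.59, 4.91 and 5.24, against 5.30, 5.92, 4.94 and 6.18 on wild-type sham arrays A to D. The adjusted p values in TLR4-/- and wild type were 0.580 and 0.342 for Snap25 and 0.790 and 0.381 for Camk2a.

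Of the other 7 neuronal markers, Slc17a7 had a mean over all arrays above the background bound, and the remaining 6 had means below it. Slc17a7, the vesicular glutamate transporter of cortical neurons, averaged 4.92 ± 0.20 in TLR4-/- I/R, 5.02 ± 0.35 in TLR4-/- sham, 4.40 ± 0.08 in wild-type I/R and 4.72 ± 0.40 in wild-type sham (SD, n = 3, 3, 4 and 4). The GABA-synthesising enzymes Gad1 and Gad2 had group means of 4.35 to 4.68 and 3.76 to 4.14. Group means ran from 4.52 to 4.64 for Rbfox3, the nuclear antigen NeuN, and from 4.07 to 4.34 for Syt1, a calcium sensor of synaptic vesicles. They ran from 4.01 to 4.31 for Tubb3, a neuronal tubulin, and from 4.04 to 4.21 for Nefl, a neurofilament subunit. In wild type 8 of the 9 neuronal markers had a lower mean after I/R than after sham, with a median difference of -0.25 beside -0.06 over all genes, and none of the 8 passed. Wild-type I/R array A was the lowest of its group for 8 of the 9. None of the 9 other neuronal markers passed within a genotype.

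Averaged over both genotypes, 5 of the 33 markers passed, 3 higher and 2 lower, while 9.61% of all genes were higher and 8.52% lower. The lower ones were Slc1a3 (-0.73, adjusted p = 4.35e-05) and Pecam1 (-1.01, adjusted p = 1.13e-05). The higher ones were Cspg4 (0.46, adjusted p = 0.00294), Cdh5 (0.58, adjusted p = 0.00205) and Flt1 (0.37, adjusted p = 0.0117). These were the 5 that had passed in wild type, which supplies part of the average. Of the 49 other markers 5 passed, among them Slc32a1, the vesicular GABA transporter (-0.24, adjusted p = 0.0421). Of the 9 markers of choroid plexus, ependyma, fibroblasts and red cells, Ttr, the transthyretin gene, passed in the average (-0.28, adjusted p = 0.0366), below the background bound, and none passed within a genotype.

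**Figure D3:**
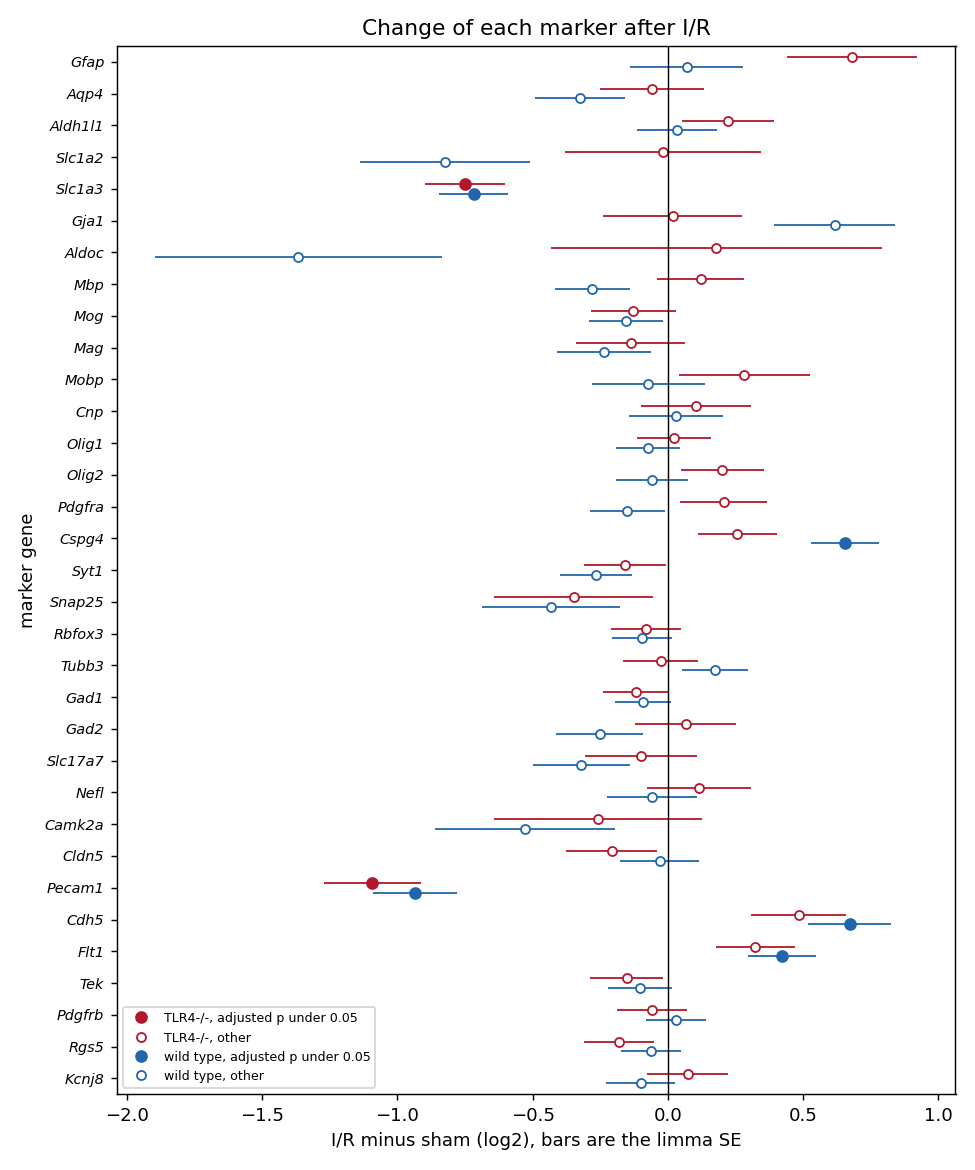
Log2 difference between I/R and sham (horizontal axis, bars are the limma SE) of each of the 33 markers (vertical axis) in TLR4-/- and wild type. Filled points passed at an adjusted p under 0.05. The filled points are Slc1a3 and Pecam1 in both genotypes and Cspg4, Cdh5 and Flt1 in wild type.

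Markers of the microglia themselves moved between the same arrays. Of the 9 measured, 3 were lower after I/R in TLR4-/- (Cx3cr1, Tmem119 and Siglech) and 5 in wild type (those and P2ry12 and Csf1r), and none was higher. Over all genes 3.13% were lower and 5.04% higher in TLR4-/-, and 3.63% and 6.15% in wild type. The median difference of the list was -0.33 in TLR4-/- and -0.38 in wild type, beside -0.03 and -0.06 over all genes. Its part in the marker results was not tested.

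The second question was whether the genotypes differed. None of the 33 markers passed between TLR4-/- and wild type after I/R, where 0.0201% of all genes passed, or after sham, where 0.00502% did. None passed in the difference of the I/R changes between genotypes (TLR4-/- minus wild type), where 0.0% of all genes passed. At an unadjusted p under 0.05 the limma counts were 6 of 33 after I/R (8.47% of all genes), 3 after sham (5.24%) and 0 for the difference of changes (3.82%). For Cspg4, the difference of the changes was -0.40 (SE 0.19), and for Cdh5 it was -0.19 (SE 0.23), with an adjusted p of 1.00 for each.

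The 6 with an unadjusted p under 0.05 after I/R came from 3 classes. Slc17a7, Gad2, Olig2, Gfap and Slc1a2 had higher means in TLR4-/- and Gja1 a lower one. The log2 differences were 0.53 for Slc17a7, 0.38 for Gad2, 0.33 for Olig2, 0.49 for Gfap, 0.74 for Slc1a2 and -0.76 for Gja1, with adjusted p between 0.482 and 0.586. Only Slc17a7 of these 6 had TLR4-/- arrays apart from wild-type arrays, from 4.77 to 5.16 in TLR4-/- I/R and from 4.29 to 4.48 in wild-type I/R. In all, 27 of the 33 markers had a higher mean in TLR4-/- than in wild type after I/R, with a median difference of 0.14 beside 0.03 over all genes. After sham it was 20 of 33 (median 0.06 beside 0.01), and the 3 with an unadjusted p under 0.05 were Cldn5 (0.47), Tubb3 (0.30) and Gad1 (0.25). Without TLR4-/- I/R array D and wild-type sham array C, still none of the 33 passed between genotypes or in the difference of changes. Over all genes 0 passed after I/R, and 1 higher and 9 lower after sham. At an unadjusted limma p under 0.05 there were 2699 genes after I/R, 2062 after sham and 1387 for the difference. With all arrays these were 1689, 1045 and 762.

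Class by class, the mean of the members' log2 values on each array gave a class signal. The astrocyte signal was 5.50 ± 0.29 in TLR4-/- I/R, 5.46 ± 0.15 in TLR4-/- sham, 5.24 ± 0.25 in wild-type I/R and 5.60 ± 0.19 in wild-type sham (SD, n = 3, 3, 4 and 4). The oligodendrocyte signal in the same groups was 6.03 ± 0.24, 5.98 ± 0.11, 5.87 ± 0.08 and 6.01 ± 0.23. The astrocyte difference between surgeries was -0.36 in wild type, where wild-type I/R array B (5.56) lay within the sham range of 5.38 to 5.82. The oligodendrocyte difference in wild type was -0.14, and -0.26 without wild-type sham array C. That array had 5.67, below the I/R range of 5.76 to 5.96, while the other sham arrays, at 6.09 to 6.15, lay above it.

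The neuronal signal was 4.66 ± 0.23 in TLR4-/- I/R, 4.76 ± 0.14 in TLR4-/- sham, 4.44 ± 0.17 in wild-type I/R and 4.64 ± 0.12 in wild-type sham. The neuronal difference between surgeries in wild type was -0.21. With single arrays left out it ran from -0.27 without wild-type I/R array B to -0.14 without wild-type I/R array A. The lineage signal ran between 4.53 and 4.75 and the pericyte signal between 3.87 and 4.01 as group means, below or close to the background bound. The endothelial signal was 4.98 ± 0.07, 5.11 ± 0.15, 4.97 ± 0.05 and 4.97 ± 0.09 in the same order of groups. In wild type the endothelial difference between I/R and sham was 0.0049, although Pecam1 was lower and Cdh5 and Flt1 were higher, so the class mean did not show these changes. The astrocyte difference likewise depended on its members. It was -0.36 as the mean of 7 genes, -0.022 as their median and -0.97 over the 3 genes above the background bound. No test was made on class signals.

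**Figure D4:**
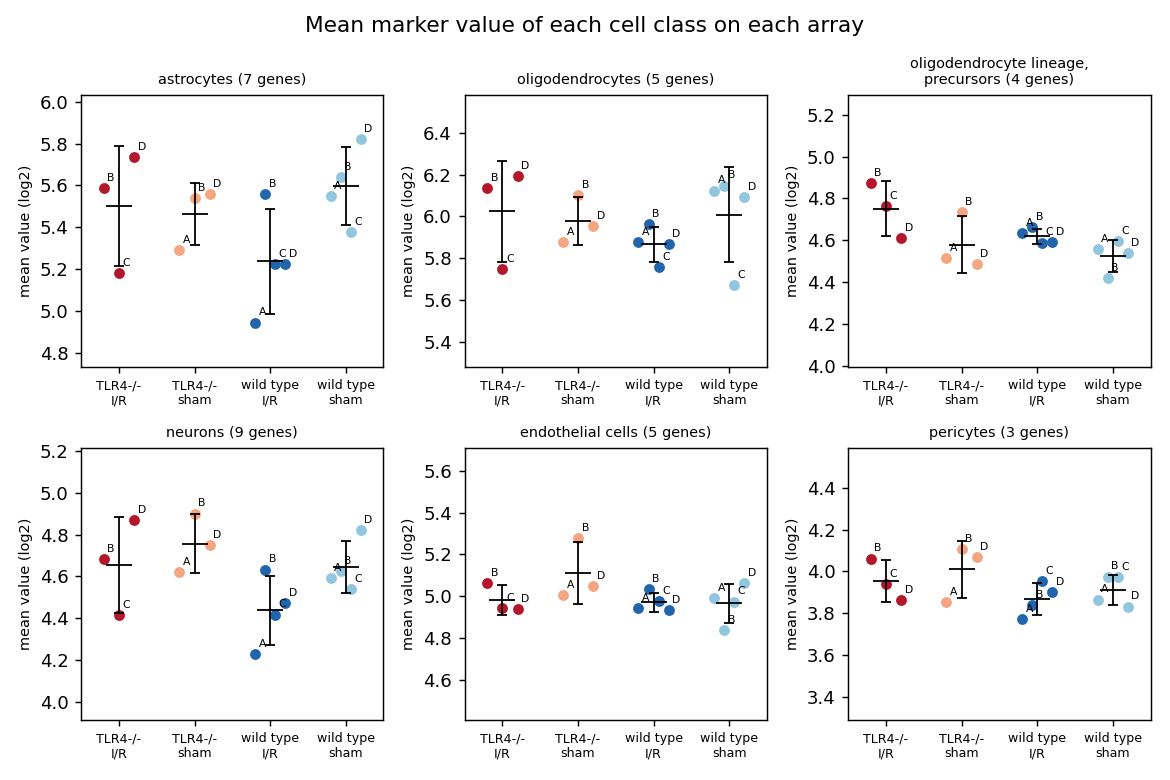
Mean log2 value of the members of each cell class on each array (vertical axis) by group (horizontal axis). Points are arrays with their letter, and bars are the group mean ± SD. All panels span the same number of log2 units around different centres. I/R and sham of the same genotype overlap in all panels, and arrays C of TLR4-/- I/R and of wild-type sham are the lowest of their groups for oligodendrocytes.

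Array by array, some markers varied within groups far more than most genes. The within-group SD of Aldoc was 0.94, the second highest of 19938 genes. Camk2a came 86th (0.58), Slc1a2 131st (0.55) and Snap25 431st (0.43), against a median SD of 0.187 over all genes. In all, 22 of the 33 markers had an SD above that median. Among the markers that had passed between I/R and sham, Slc1a3 (0.180), Cspg4 (0.175) and Flt1 (0.175) were below it and Pecam1 (0.242) and Cdh5 (0.234) above it.

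These 4 genes of highest spread, which are made by astrocytes or neurons, were lowest on the same array of each group. This was array C of TLR4-/- I/R, array A of TLR4-/- sham, array A of wild-type I/R and array C of wild-type sham. In wild-type I/R all 4 were highest on array B as well. The values of Aldoc spanned 2.81 log2 units in wild-type I/R, the widest of the 4 groups, and 1.01 in TLR4-/- sham, the narrowest. The 4 genes were chosen by their spread, and the agreement in arrays is a description with no test.

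Counted over whole classes, wild-type I/R array A was the lowest of its group for 8 of the 9 neuronal markers, where the same array was lowest for 25.0% of all genes. TLR4-/- sham array B was the highest of its group for 24 of the 33 markers, beside 37.7% of all genes, and wild-type I/R array B for 15 of 33, beside 28.1%. TLR4-/- sham array A was the lowest for 18 of 33, beside 36.9%, and TLR4-/- I/R array C for 15 of 33, beside 27.8%. For the oligodendrocyte markers, wild-type sham array C was the lowest for 4 of 5, beside 29.4% of all genes. TLR4-/- I/R array D, which stood nearer to wild-type I/R over all genes, was the highest for 14 of 33 markers (27.2% of all genes) and the lowest for 12 (42.3%).

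**Figure D5:**
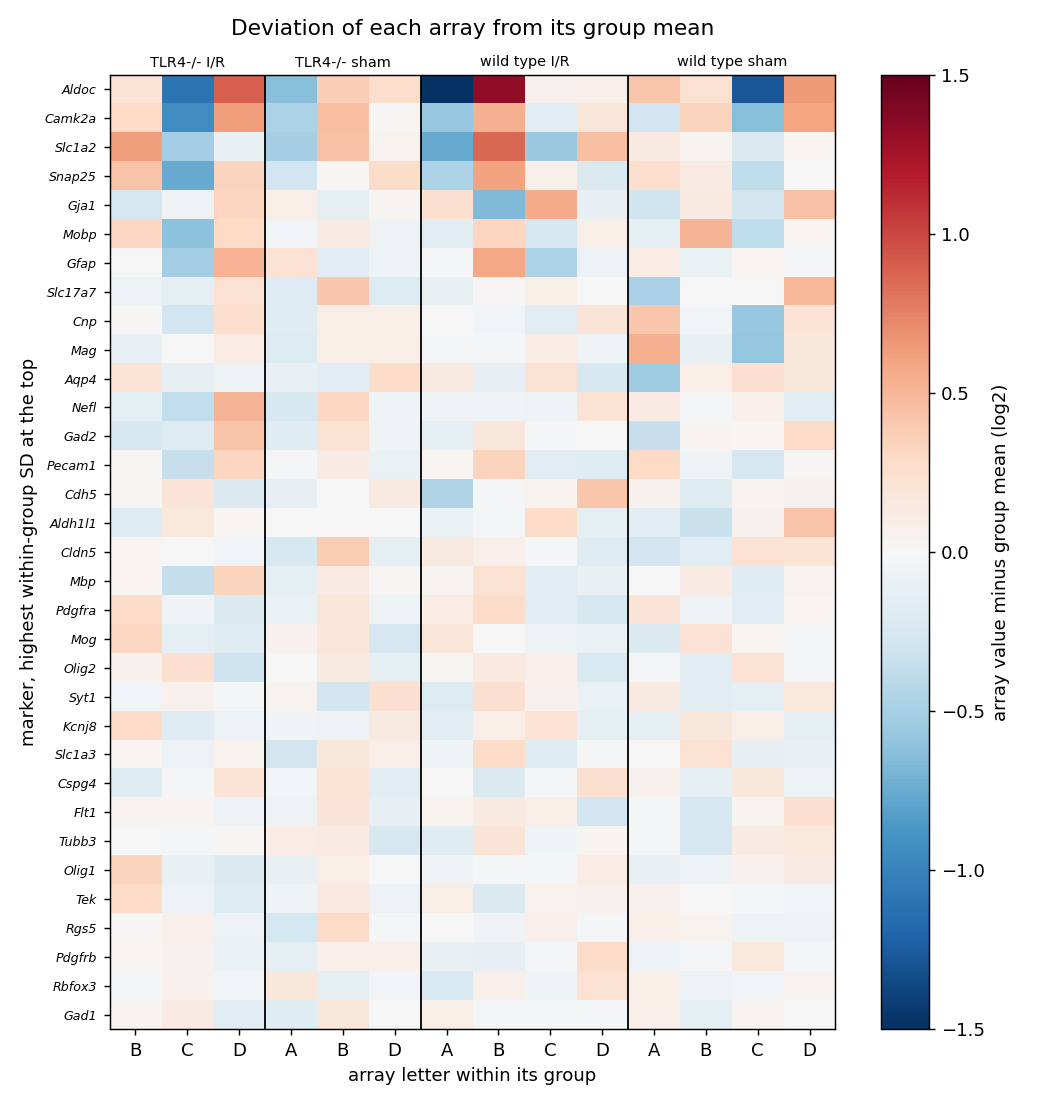
Array value minus group mean (colour, log2 units) of each of the 33 markers (rows, highest within-group SD at the top) on each of the 14 arrays (columns, by group and letter). The top rows, Aldoc, Camk2a, Slc1a2 and Snap25, are blue on array C of TLR4-/- I/R, array A of TLR4-/- sham, array A of wild-type I/R and array C of wild-type sham.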

How the data were processed

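The values deposited by the authors are log2 expression values, 1 per array row and sample, made from Affymetrix Mouse Gene 1.0 ST arrays. The submitters' processing notes name RMA and oligo, with no version. RMA corrects background, gives the arrays a common distribution and summarises probes. No further normalization was applied. Precision is limited by how many arrays a group has.

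Of 35556 rows, 21789 carried 1 gene symbol in the platform annotation, 1621 several and 12146 none here. Gene IDs of 21698 were found in RefSeq (GRCm38.p6). The row with the highest mean stood for each of 999 genes with several rows, which left 19938 genes. All 14 arrays were fitted together, with a mean for each of 4 groups (lmFit and eBayes of limma 3.58.1, R 4.3.3), with Benjamini-Hochberg adjustment over all genes and a threshold of 0.05. The model was also run on simulated data, with noise independent between genes and arrays and changes planted in wild-type I/R alone. That run held no variation shared by the genes of an array, so it cannot speak to such variation here. Class signals have no test.

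The members and marker lists were chosen with earlier results of these data known. All members are named. Every array is given for members that passed and for the 2 of highest mean in each class. Other markers are named if they passed or were the 2 brightest of a class. Promoter sequences are from RefSeq (GRCm38.p6). The alternatives were the replicate letter as a block, median centring, trended and robust variance, array weights, a filter on dim genes, the 2 groups compared alone, the mean of all rows per gene, and each array left out. Chosen after seeing the data, TLR4-/- I/R array D and wild-type sham array C were also left out together. Class signals were also taken as a median and over members above the bound.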

Additional observations from a re-analysis of the deposited data

Results flagged for a closer look

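In the wild-type groups of 4 arrays, 78 sets of 4 values were examined for an array far from the other three, and 5 were found. About 1 in 20 such sets would be found by chance. Gad1 was 4.43 on wild-type I/R array A, with the other arrays at 4.31 to 4.32. Nefl was 4.35 on wild-type I/R array D, with the others at 4.07 to 4.10. Cdh5 was 4.85 on wild-type sham array B, with the others at 5.08 to 5.09. Tek was 3.10 on wild-type I/R array B, with the others at 3.38 to 3.43. The oligodendrocyte signal was 5.67 on wild-type sham array C, with the others at 6.09 to 6.15, and that array also stood nearer to TLR4-/- sham than to its own group over all genes. Gad1, Nefl and Tek were below the background bound on these arrays. Without wild-type sham array B, Cdh5 still passed in wild type.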

How the results depend on the processing

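All 130 recomputed counts of markers passing between groups stayed within 1.5 times the reported count. Leaving out single arrays gave 4 to 7 markers in wild type, 2 to 3 in TLR4-/- and 5 to 6 in the average, and 0 in each genotype comparison. Slc1a3 and Pecam1 passed in both genotypes, and Cspg4 and Cdh5 in wild type, in 22 of 22 settings, and Flt1 in wild type in 11 of 22. Beyond single arrays, Flt1 was lost with only the 2 groups compared (adjusted p = 0.0759). It was also lost without both TLR4-/- I/R array D and wild-type sham array C (0.0764), where Aldoc passed (0.0330). Correlations of deviations between arrays of different groups cannot settle whether the array letters pair the samples. They lay between -0.10 and 0.28 for same-letter arrays (median 0.041, 3 of 18 over 0.1). For arrays of other letters they lay between -0.26 and 0.24 (median -0.0052, 6 of 55 over 0.1). With the letter as a replicate block, 6 markers passed in wild type, with Aldoc (adjusted p = 0.0454) and Slc1a2 (0.0237) in and Flt1 (0.0648) out. The block gave 3 in TLR4-/-, with Gfap (0.0452), and 5 in the average. Fits of only 2 groups were not run for the average or the difference of changes, and class signals only for the 4 comparisons of 2 groups. Of 264 recomputed class differences 17 moved by more than the spread between arrays, 8 with a median in place of the mean and 9 with only members above the background bound, and the cause was not tested. With medians, I/R minus sham in wild type was -0.022 for astrocytes and -0.067 for the lineage, and in TLR4-/- it was 0.35 for astrocytes, 0.21 for endothelial cells and 0.073 for pericytes. TLR4-/- minus wild type was 0.36 for oligodendrocytes and 0.29 for endothelial cells after I/R and -0.090 for pericytes after sham. With only members above the background bound, I/R minus sham in wild type was -0.97 for astrocytes, 0.65 for the lineage, -0.43 for neurons and -0.10 for endothelial cells. In TLR4-/- it was -0.20 for astrocytes and -0.27 for endothelial cells. TLR4-/- minus wild type was then 0.56 for astrocytes and -0.16 for the lineage after I/R and 0.24 for the lineage after sham. Cspg4 was the only lineage member with a mean above the bound, so the lineage values with this filter are those of Cspg4 alone. Markers near the background bound are limited by signal over background.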

Other observations

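Among all 19938 genes, several of those with the highest within-group SD are also known from neurons and astrocytes. They were chosen after their values were seen and carry no test. Sparcl1, a matrix protein that astrocytes secrete, came eighth with an SD of 0.85 and was lowest on the same 4 arrays as Aldoc. Its values were 8.04, 6.27 and 7.86 on TLR4-/- I/R arrays B, C and D, against 6.71, 7.62 and 7.48 on TLR4-/- sham arrays A, B and D. In wild type they were 5.31, 7.46, 5.82 and 6.60 on I/R arrays A to D, against 8.26, 8.29, 6.49 and 7.96 on sham arrays A to D. Gpm6a, a membrane glycoprotein of neurons, came sixth (SD 0.88) and shared the lowest array with Aldoc in 3 groups, and in wild-type sham it was lowest on array A. Cpe, a peptidase that processes neuropeptides, came 11th (SD 0.82) and shared it in 3 groups, with array C the lowest in wild-type I/R. Hspa1a, a heat-shock gene, was first, and Aldoc second. Genes of other kinds were among the highest too, with Mir340, Olfr920 and S100a9 at ranks 3, 4 and 5. Mir340 was lowest on array B of every group and so did not share the lowest arrays of Aldoc.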
